A study of Mus musculus with 18 samples.

Results

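The alpha cell genes described here are 8 of the 24346 genes listed in each deposited expression table, chosen by their symbols: glucagon (Gcg), the transcription factors Irx1, Irx2 and Pou3f4, the secreted carriers Ttr and Gc, and the amino acid transporters Slc38a5 and Slc7a2. RNA from isolated islets of Langerhans of C57BL/6 mice was sequenced in 18 libraries, 3 in each of 6 groups. Mice with exon 2 of Cdh13 deleted were profiled at 14 weeks of age after 6 weeks of high-fat diet, at 14 weeks on normal chow and at 8 weeks on normal chow. Mice with that exon floxed, which the series design counts as wild type, were profiled under the same 3 conditions. Cdh13 encodes T-cadherin, a membrane-anchored cadherin that binds adiponectin. The sources used here do not say what deleted the exon, in which cells, or whether the controls carried a Cre recombinase. The labels do not say that replicates came from separate animals, so p-values measure the spread between these samples, which may be technical.

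Alpha cells are the islet cells that secrete glucagon, the hormone that raises blood glucose by driving glucose output from the liver. Amino acids stimulate alpha cells, and amino acid uptake is tied to both glucagon secretion and alpha cell growth in mice. Besides glucagon, alpha cells make transthyretin and the vitamin D binding protein, which the liver makes in far larger amounts for the blood. Bulk islet RNA mixes alpha cells with the more numerous beta cells, so that fewer alpha cells and less RNA per alpha cell cannot be told apart in any result below.

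In the mouse build GRCm38 (GENCODE annotation), Gcg lies on the minus strand at chr2:62474530-62483650 and Gc on the minus strand at chr5:89417522-89457898. Irx1 (chr13:71957921-71963723, minus strand) and Irx2 (chr13:72628820-72634198, plus strand) are members of the same Iroquois gene cluster. Slc38a5 (chrX:8271133-8280179) and Pou3f4 (chrX:110814280-110817207) lie on the plus strand of the X chromosome. Slc7a2 is at chr8:40862396-40922308 on the plus strand. Of the 8 members, only Slc7a2 has exons that overlap another annotated gene, on the opposite strand, and the library preparation does not mark strand.

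RefSeq promoter windows (build GRCm38.p6) ran from 250 bases before to 50 bases after the annotated start. Those of 5 members were searched, which do not include Ttr, Irx1 or Slc7a2. Windows are shown for 4 members, grouped by the sign of their genotype differences, not all of which were called. In each condition Gcg, Irx2 and Slc38a5 shared that sign, and Gc had the opposite one. The grouping does not cover diet or age. They are written 5′ to 3′ along each gene's own strand, with capitals marking matches to 8 short motifs searched on both strands. The windows are chr2:62483604-62483903 for Gcg, chr13:72628570-72628869 for Irx2, chrX:8271131-8271430 for Slc38a5 and chr5:89457849-89458148 for Gc.
Gcg: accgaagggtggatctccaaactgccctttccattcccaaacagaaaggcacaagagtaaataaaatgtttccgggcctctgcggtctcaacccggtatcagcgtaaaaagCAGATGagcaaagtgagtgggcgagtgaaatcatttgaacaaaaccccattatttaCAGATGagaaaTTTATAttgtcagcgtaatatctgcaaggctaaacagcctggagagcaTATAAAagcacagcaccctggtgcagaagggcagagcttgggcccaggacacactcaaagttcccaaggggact
Irx2: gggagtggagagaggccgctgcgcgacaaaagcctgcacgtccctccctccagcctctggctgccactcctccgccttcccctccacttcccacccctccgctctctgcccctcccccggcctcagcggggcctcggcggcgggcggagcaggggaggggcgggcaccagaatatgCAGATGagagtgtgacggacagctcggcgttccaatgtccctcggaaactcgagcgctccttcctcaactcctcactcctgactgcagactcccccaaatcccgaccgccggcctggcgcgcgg
Slc38a5: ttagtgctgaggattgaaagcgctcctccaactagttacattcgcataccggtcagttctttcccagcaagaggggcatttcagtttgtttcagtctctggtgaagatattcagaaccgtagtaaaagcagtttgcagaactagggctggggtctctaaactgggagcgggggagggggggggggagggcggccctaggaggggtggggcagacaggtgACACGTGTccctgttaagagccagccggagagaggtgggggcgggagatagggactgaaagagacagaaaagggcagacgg
Gc: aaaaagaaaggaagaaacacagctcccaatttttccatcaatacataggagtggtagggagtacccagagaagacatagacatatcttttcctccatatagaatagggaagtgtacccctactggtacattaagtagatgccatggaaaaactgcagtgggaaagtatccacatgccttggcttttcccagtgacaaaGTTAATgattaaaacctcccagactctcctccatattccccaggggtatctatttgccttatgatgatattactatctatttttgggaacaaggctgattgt

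Gcg holds a TATA box (TATAAA) 24 bases before its start and a reverse-strand match (TTTATA) 72 bases before it. It also holds the E-box letters of the NEUROD1 type (CAGATG) at 2 places, at positions -139 and -83, and Irx2 holds them at -74. Slc38a5 holds an Iroquois-type match (ACANNTGT) at -31, and Gc holds a short HNF1-type motif (GTTAAT) at -52. Such matches are common: of 32851 mouse promoter windows of the same length, 13.6% held TATAAA, 17.2% CAGATG, 7.38% ACANNTGT and 7.10% GTTAAT on either strand. The forkhead letters TGTTTAC (3.65% of windows), the POU octamer ATGCAAAT (1.74%), the homeodomain core TAATTA (5.29%) and the cyclic AMP response element TGACGTCA (1.79%) were in none of the 5 windows. No motif was common to the windows of Gcg, Irx2 and Slc38a5, and no searched motif was in the Pou3f4 window. The promoter of Ttr, whose genotype differences also had the sign of those of Gcg, was not searched.

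Expression was deposited as FPKM, a count of fragments scaled to transcript length and library size. Read totals were not analysed here, so absolute depth is unknown. The FPKM value of 1 fragment, read from the steps between low values, spanned 1.38 times between libraries within the range searched. Cdh13 itself measured 0.247 to 0.809 FPKM in deleted islets and 1.08 to 2.06 FPKM in floxed islets, with no overlap. The labelled tissue carried its defining markers, with Ins2 at 40.2% to 52.7% and Gcg at 1.45% to 4.31% of the summed FPKM. The 6 liver markers listed, since liver also makes Ttr and Gc, summed to 2.56 to 17.4 FPKM. Ahsg (at 0 in 15 of 18 libraries), Serpina1a (0 to 0.241 FPKM) and albumin (0 to 0.309 FPKM) were lowest, and Fgb (1.23 to 12.6 FPKM) and Apoa2 (0.499 to 5.69 FPKM) highest. Both of these were tested, and Fgb was called higher in deleted islets at 8 weeks (log2 difference 1.82) and higher at 14 than at 8 weeks in floxed chow-fed islets (1.64), and its part in the member values was not tested. Acinar markers summed to between 7.88 and 4353 FPKM and were highest in the 14-week chow groups. Genes that reached 1 FPKM in 3 or more libraries were tested with limma on log2(FPKM + 1), and called at an adjusted p below 0.05 over all 12234 tested genes. That scale understates the fold change of genes near 1 FPKM. Of the 8 members, 6 were tested, and all 6 exceeded 1 FPKM in all 18 libraries, while Irx1 and Pou3f4 stayed below 1 FPKM in every library.

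**Figure D1:**
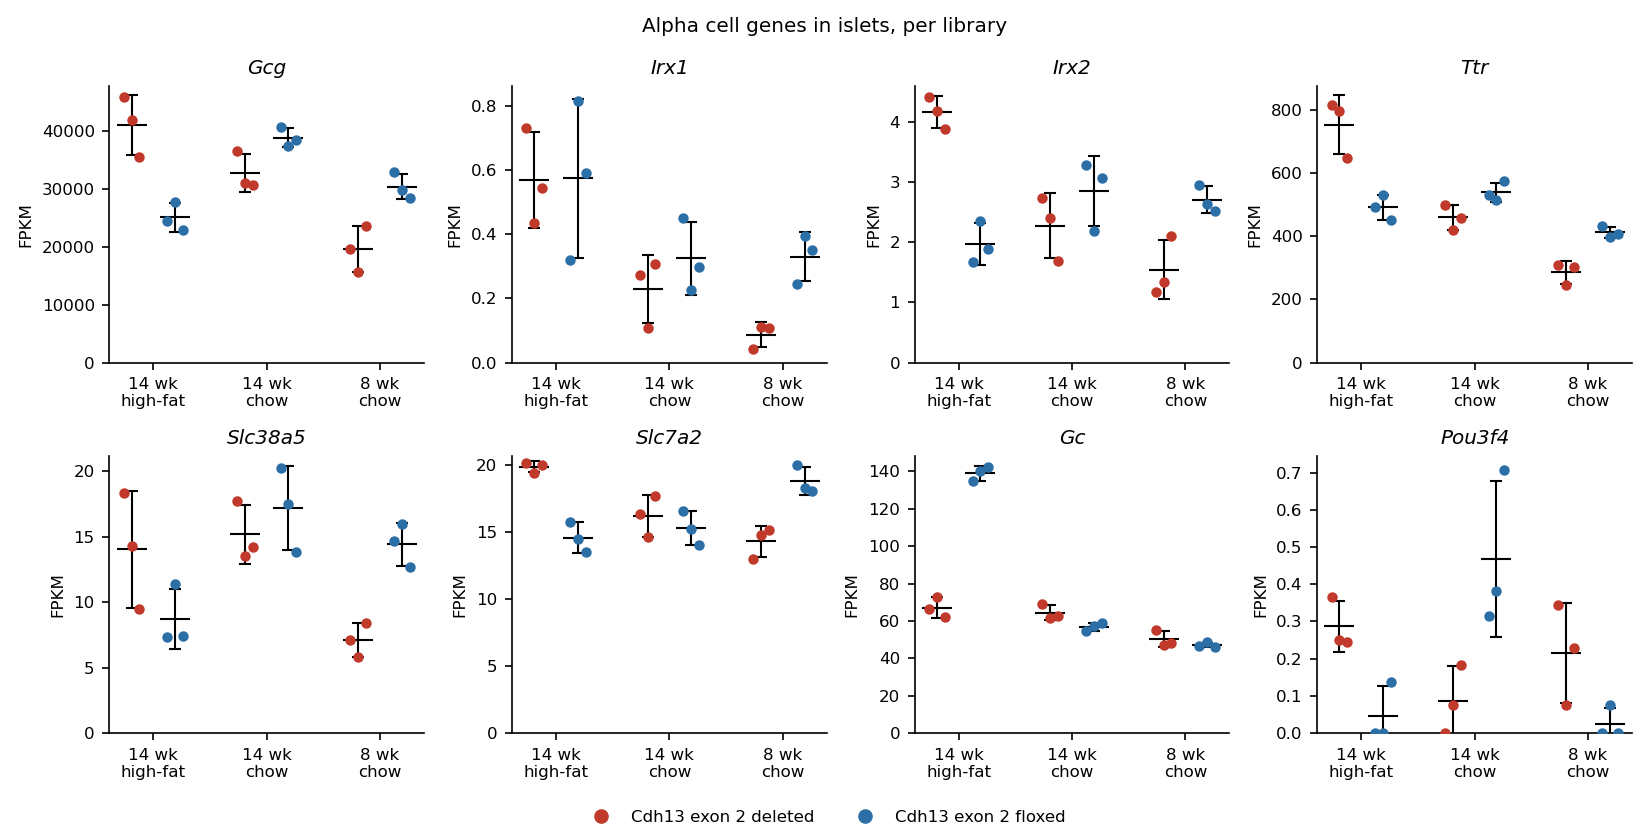
FPKM of the 8 alpha cell genes in each library (points), with the group mean and SD (bars, n = 3), for deleted (red) and floxed (blue) islets in each condition. The Gcg, Irx2 and Ttr libraries of deleted islets lie above those of floxed islets on the high-fat diet and below them at 8 weeks, while Gc stands apart in floxed islets on the high-fat diet.

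Gcg encodes proglucagon, the precursor of glucagon, and ranked between 3 and 5 among the 24346 genes in every library. On the high-fat diet Gcg measured 45768, 41802 and 35511 FPKM in deleted islets, against 24454, 27740 and 22926 FPKM in floxed islets. All 3 deleted libraries were above all 3 floxed ones, and the deleted mean was 164% ± 15.1 (SE) of the floxed mean. The difference passed the test (log2 difference 0.71, SE 0.122, limma adjusted p = 8.50e-04). Quantile normalization, which sets a value by its rank alone and so leaves Gcg only 3 possible values, gave 0.36 and ended the call (adjusted p = 0.258). At 8 weeks the order was the opposite.

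There Gcg measured 19537, 15558 and 23544 FPKM in deleted islets, against 32835, 29830 and 28484 FPKM in floxed islets. The groups did not overlap, and the deleted mean was 64.3% ± 8.06 (SE) of the floxed mean (log2 difference -0.65, SE 0.122, limma adjusted p = 0.0175). That call was lost without replicate 1 or 2 of either 8-week group (adjusted p 0.0664 to 0.0847), in a fit of only the 2 groups compared (0.0843) and with no filter on low values (0.0559). At 14 weeks on chow Gcg measured 36545, 30919 and 30702 FPKM in deleted islets, against 40581, 37346 and 38385 FPKM in floxed islets. These groups did not overlap either, but the difference did not pass (log2 difference -0.25, limma adjusted p = 0.643). Over the 6 groups the mean fell in the order deleted high-fat diet, floxed 14-week chow, deleted 14-week chow, floxed 8-week chow, floxed high-fat diet and deleted 8-week chow. Of neighbours in that order, floxed and deleted 14-week chow, and floxed 8-week chow and floxed high-fat diet, did not overlap in their libraries. The order depends on the scale, since summed FPKM ran from 903346 to 1394009 and was highest on the high-fat diet. As a share of summed FPKM, mean Gcg was highest in floxed (3.93%) and deleted (3.32%) 14-week chow islets. That share was 3.01% in deleted and 1.83% in floxed islets on the high-fat diet, and 1.74% and 2.75% at 8 weeks.

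Irx2, an Iroquois homeobox factor enriched in alpha cells, followed the same order of genotypes at a level near 2 FPKM. On the high-fat diet it measured 4.43, 4.19 and 3.89 FPKM in deleted islets, against 1.67, 2.36 and 1.89 FPKM in floxed islets. Every deleted library exceeded every floxed one, and Irx2 rose by 0.80 on the log2 scale (SE 0.151, limma adjusted p = 0.00168). At 8 weeks it measured 1.18, 1.35 and 2.10 FPKM in deleted islets, against 2.96, 2.64 and 2.53 FPKM in floxed islets. No libraries overlapped, yet the difference missed the threshold (log2 difference -0.56, SE 0.151, limma adjusted p = 0.0977). At 14 weeks on chow the values overlapped, at 2.75, 2.41 and 1.69 FPKM in deleted islets and 3.296, 2.198 and 3.07 FPKM in floxed islets (log2 difference -0.23, limma adjusted p = 0.818). The steps in FPKM imply 35 to 155 Irx2 fragments a library, a whole number within 0.1 in each.

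Irx1, the second Iroquois gene of the cluster, was low everywhere and was not tested across genes. It measured 0.0409, 0.109 and 0.108 FPKM in deleted islets at 8 weeks, against 0.245, 0.393 and 0.350 FPKM in floxed islets. The implied fragments were 7 in all over the 3 deleted libraries and 27 over the 3 floxed ones, and the groups did not overlap. With 3 libraries a side, the two-sided exact permutation test cannot go below p = 0.1, which it reached here. On the high-fat diet Irx1 measured 0.729, 0.434 and 0.543 FPKM in deleted islets and 0.318, 0.814 and 0.590 FPKM in floxed islets, which overlapped (exact p = 1.0). At 14 weeks on chow it measured 0.272, 0.109 and 0.305 FPKM in deleted islets and 0.449, 0.226 and 0.298 FPKM in floxed islets, which overlapped as well. In deleted islets the high-fat diet libraries were all above the chow libraries of the same age.

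Pou3f4, a POU factor expressed in developing alpha cells, rested on 0 to 9 implied fragments a library and was listed at 0 in 5 libraries. After 6 weeks of high-fat diet it measured 0.365, 0.249 and 0.245 FPKM in deleted islets, against 0, 0 and 0.138 FPKM in floxed islets. At 14 weeks on chow it measured 0, 0.0761 and 0.184 FPKM in deleted islets, against 0.315, 0.381 and 0.706 FPKM in floxed islets. At 8 weeks it measured 0.344, 0.0766 and 0.227 FPKM in deleted islets, against 0, 0.0751 and 0 FPKM in floxed islets. The genotypes did not overlap in any condition, but their order at 14 weeks on chow was opposite to that in the other two. At 8 weeks the libraries nearest to each other, deleted replicate 2 and floxed replicate 2, rest on 1 implied fragment each, so that their order comes from library scaling and the counts are tied. Each comparison gave an exact permutation p of 0.1, the smallest that 3 against 3 libraries allow, and no fold is given at such counts.

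Ttr encodes transthyretin, a carrier of thyroid hormone and of retinol binding protein, and lies on the plus strand at chr18:20665280-20674321. Under the high-fat diet it measured 815, 798 and 647 FPKM in deleted islets, against 492, 531 and 453 FPKM in floxed islets. The groups were apart, and Ttr rose by 0.61 on the log2 scale (SE 0.0968, limma adjusted p = 4.10e-04), to 153% ± 12.9 (SE) of the floxed mean. At 8 weeks it measured 308, 245 and 304 FPKM in deleted islets, against 431, 396 and 409 FPKM in floxed islets. Again the groups were apart, now with deleted islets lower, at 69.4% ± 5.28 (SE) of the floxed mean (log2 difference -0.53, SE 0.0968, limma adjusted p = 0.0160). That call was lost without deleted replicate 2 or without any of the 3 floxed replicates of that age (adjusted p 0.0517 to 0.0794), and with no filter (0.0514). At 14 weeks on chow Ttr measured 500, 420 and 459 FPKM in deleted islets and 530, 516 and 574 FPKM in floxed islets (log2 difference -0.23, limma adjusted p = 0.492).

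Gc encodes the vitamin D binding protein, which carries vitamin D metabolites and scavenges actin, and it did not follow Gcg. In mice fed the high-fat diet it measured 66.1, 73.0 and 61.8 FPKM in deleted islets, against 134.7, 140.1 and 142.6 FPKM in floxed islets. The floxed libraries all lay far above the deleted ones, and the deleted mean was 48.1% ± 2.47 (SE) of the floxed mean (log2 difference -1.05, SE 0.0705, limma adjusted p = 2.68e-08). On chow the genotypes were close. Gc measured 69.1, 61.5 and 62.7 FPKM in deleted islets and 54.5, 57.2 and 59.0 FPKM in floxed islets at 14 weeks (log2 difference 0.18, limma adjusted p = 0.469). At 8 weeks it measured 55.1, 47.1 and 48.2 FPKM in deleted islets and 46.6, 48.6 and 46.3 FPKM in floxed islets (log2 difference 0.08, limma adjusted p = 0.685). Floxed islets on the high-fat diet were thus alone above 73.0 FPKM, and the other 5 groups had means between 47.2 and 67.0 FPKM.

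Slc38a5 encodes SNAT5, a transporter of glutamine and other neutral amino acids. Under the high-fat diet it measured 18.4, 14.3 and 9.46 FPKM in deleted islets and 7.34, 11.4 and 7.44 FPKM in floxed islets. The groups overlapped through deleted replicate 3, and the difference missed the threshold (log2 difference 0.61, SE 0.208, limma adjusted p = 0.0724). It passed without that library (0.85, adjusted p = 0.0108) and without floxed replicate 2 (0.80, adjusted p = 0.0282). At 8 weeks Slc38a5 measured 7.14, 5.78 and 8.37 FPKM in deleted islets, against 14.6, 15.9 and 12.7 FPKM in floxed islets. The deleted mean was 49.2% ± 6.12 (SE) of the floxed mean with no overlap (log2 difference -0.94, SE 0.208, limma adjusted p = 0.0586). In 14-week chow-fed mice the groups overlapped, at 17.7, 13.5 and 14.2 FPKM in deleted islets and 20.2, 17.5 and 13.8 FPKM in floxed islets.

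Slc7a2 encodes CAT2, a transporter of arginine, lysine and ornithine. With the high-fat diet it measured 20.1, 19.4 and 20.0 FPKM in deleted islets, against 15.8, 14.5 and 13.5 FPKM in floxed islets. The groups were apart, and Slc7a2 rose by 0.42 on the log2 scale (SE 0.0862, limma adjusted p = 0.00320). At 8 weeks it measured 12.99, 14.7 and 15.1 FPKM in deleted islets, against 20.0, 18.3 and 18.04 FPKM in floxed islets. The groups were apart in the other direction, with a log2 difference of -0.37 that missed the threshold (SE 0.0862, limma adjusted p = 0.0586). Among chow-fed mice of 14 weeks it overlapped, at 16.3, 14.6 and 17.7 FPKM in deleted islets and 16.6, 15.2 and 14.0 FPKM in floxed islets.

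The members were chosen with earlier results of these data known, so counts here and in later comparisons are no independent test of the set. Counted together, 5 of the 6 tested members differed between genotypes on the high-fat diet, 4 higher and 1 lower in deleted islets. Of all tested genes 10.7% did, 4.70% higher and 6.02% lower. None of the 6 passed at 14 weeks on chow, where 0.114% of tested genes did. Of the 6, Gc (0.0222) and Ttr (0.0257) had an unadjusted limma p below 0.05 there, as did 976 of the 12234 tested genes. At 8 weeks 2 of the 6 passed, both lower in deleted islets, where 0.548% of tested genes did and 0.368% were lower. The median log2 difference over the 6 members was 0.61 on the high-fat diet, -0.20 at 14 weeks on chow and -0.55 at 8 weeks. The median over all tested genes was 0.0087, 0.0022 and -0.0059 in these comparisons. The 8-week count was sensitive to the fit, with 0 members called when no filter on low values was used and 5 with sample quality weights.

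**Figure D2:**
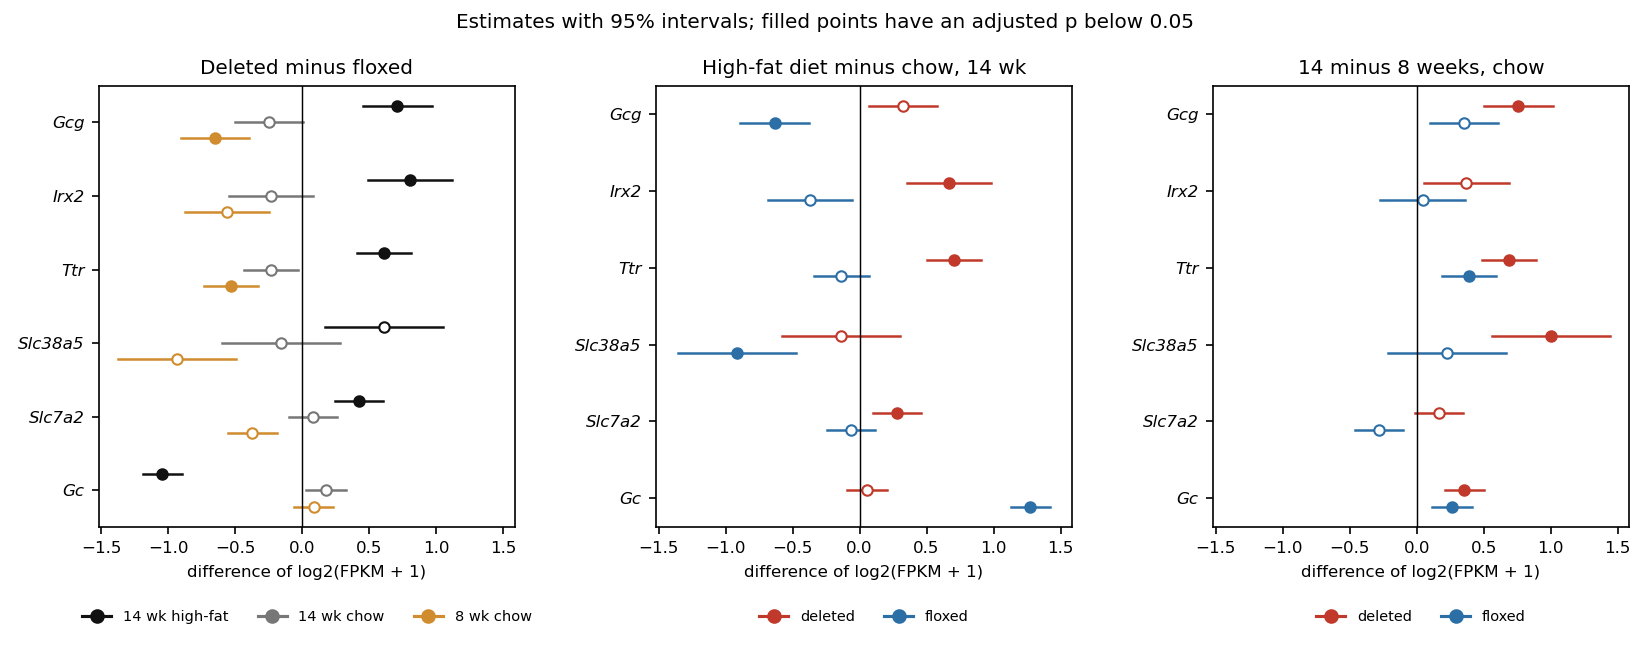
Differences of log2(FPKM + 1) with 95% intervals from limma for the 6 tested alpha cell genes, by genotype (left), diet (centre) and age (right); filled points passed an adjusted p of 0.05 over all tested genes. Except for Gc, the genotype differences lie above 0 on the high-fat diet and below 0 at 8 weeks, with those at 14 weeks on chow nearer to 0.

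Markers of other islet cells moved beside these counts. On the high-fat diet the delta cell hormone Sst rose by 0.85 on the log2 scale in deleted islets (limma adjusted p = 1.84e-05), as did all 3 tested delta markers of 4 listed. The delta markers summed to 2813 to 3203 FPKM in deleted islets, against 1538 to 1697 FPKM in floxed islets. Beta markers summed to 803445 to 854554 FPKM in deleted islets and 830572 to 864620 FPKM in floxed islets, which overlapped, although 3 of 10 beta markers were higher in limma. Most of that sum is Ins2, with means of 693373 FPKM in deleted and 715768 FPKM in floxed islets, so it says little of the other beta markers. At 8 weeks the PP cell hormones Ppy and Pyy summed to 42407 to 55901 FPKM in deleted islets, against 11376 to 17152 FPKM in floxed islets. Delta markers overlapped at that age, at 1811 to 2164 FPKM in deleted islets and 1859 to 2044 FPKM in floxed islets. Among non-endocrine lists on the high-fat diet, 3 of 6 endothelial and 1 of 5 tested fibroblast markers were lower, and 1 of 6 tested macrophage markers was higher and 1 lower, in deleted islets. The part of these cell types in the alpha cell values was not tested.

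Among 14-week mice, the high-fat diet moved the members in different ways in each genotype. In deleted islets Ttr (log2 difference 0.71, limma adjusted p = 7.42e-05), Irx2 (0.67, adjusted p = 0.00527) and Slc7a2 (0.28, adjusted p = 0.0323) rose relative to chow. These are 3 of 6 members, where 15.0% of tested genes passed and 9.05% were higher, and the Slc7a2 call was lost when any of these libraries but deleted chow replicate 3 was left out. Gcg, at 0.32, did not pass in deleted islets (adjusted p = 0.0817). As a share of summed FPKM its mean there was lower on the high-fat diet (3.01%) than on chow (3.32%). In floxed islets Gcg fell by 0.63 (SE 0.122, adjusted p = 7.73e-04) and Slc38a5 fell by 0.91 (SE 0.208, adjusted p = 0.00400) on the log2 scale, while Gc rose by 1.28 (SE 0.0705, adjusted p = 7.22e-10). These are again 3 of 6, where 28.5% of tested genes passed, and the Gcg call was lost with quantile normalization (-0.36, adjusted p = 0.178). Floxed Ttr (-0.14) and Irx2 (-0.37, adjusted p = 0.0733) did not pass. Markers of other cells moved with diet too: of 9 tested acinar markers, 6 fell in deleted and 9 in floxed islets, of 10 beta markers 9 rose in deleted islets while 4 rose and 1 fell in floxed islets, and of 3 tested delta markers 2 rose in deleted and 3 fell in floxed islets. Of 6 tested macrophage markers 1 fell in deleted and 5 in floxed islets, of 4 tested duct markers 1 and 3, of 5 tested fibroblast markers 4 and 2, and of 6 endothelial markers 2 and 3. Acinar markers summed to 72.96 to 179 FPKM on the high-fat diet and 1209 to 2267 FPKM on chow in deleted islets, and to 7.88 to 257 FPKM on the high-fat diet and 848 to 4353 FPKM on chow in floxed islets. Their part in the diet differences was not tested.

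Between 8 and 14 weeks on chow, members that passed rose with age. In deleted islets Gcg (0.76, limma adjusted p = 0.00142), Ttr (0.69, adjusted p = 3.99e-04), Slc38a5 (1.001, adjusted p = 0.0149) and Gc (0.36, adjusted p = 0.00743) were higher on the log2 scale at 14 weeks than at 8 weeks. These are 4 of 6 members, where 2.91% of tested genes passed and 2.35% were higher. Slc38a5 was not called without deleted 14-week replicate 1, 8-week replicate 1 or 8-week replicate 2 (adjusted p 0.0585 to 0.0796), nor Gc without 14-week replicate 1 (adjusted p = 0.0621). In floxed islets Ttr (0.39, adjusted p = 0.0267) and Gc (0.27, adjusted p = 0.0365) passed, 2 of 6 members, where 4.15% of tested genes did and 3.20% were higher. Both floxed calls were lost when floxed 14-week replicate 2 or 3, or any floxed 8-week replicate, was left out. Slc7a2 had a log2 difference of -0.28 in floxed islets (adjusted p = 0.0712). Of 9 tested acinar markers, 2 rose with age in floxed islets and none was called in deleted islets by limma, where both PP cell hormones fell, and 2 of 10 beta markers fell in each genotype. In floxed islets 5 of 6 tested macrophage markers (median log2 difference 0.64), 3 of 4 tested duct markers (1.14) and 1 of 6 endothelial markers rose with age, and in deleted islets 1 of 4 duct markers did. Macrophage markers summed to 239 to 299 FPKM at 14 weeks and 209 to 229 FPKM at 8 weeks in deleted islets, and to 299.8 to 341 FPKM at 14 weeks and 199.6 to 236 FPKM at 8 weeks in floxed islets. The acinar markers summed to 1209 to 2267 FPKM at 14 weeks and 20.9 to 1207 FPKM at 8 weeks in deleted islets, and to 848 to 4353 FPKM at 14 weeks and 67.7 to 186 FPKM at 8 weeks in floxed islets. Their part in the age differences was not tested.

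The change of genotype difference was tested itself. The difference on the high-fat diet minus that at 14 weeks on chow was 0.96 for Gcg (SE 0.173, limma adjusted p = 0.00405), 1.04 for Irx2 (SE 0.213, adjusted p = 0.00888), 0.84 for Ttr (SE 0.137, adjusted p = 0.00168) and -1.22 for Gc (SE 0.0997, adjusted p = 1.11e-06). These are 4 of 6 members, where 3.53% of tested genes passed, and the comparison shares its libraries with the diet comparisons above. With quantile normalization the Gcg value was 0.36 and not called (adjusted p = 0.546). Slc38a5 (0.77, adjusted p = 0.183) and Slc7a2 (0.35, adjusted p = 0.138) did not pass. The difference at 14 weeks minus that at 8 weeks on chow passed for none of the 6 members in limma (0.196% of tested genes). An unadjusted p below 0.05 was found for 4 of them: Gcg (0.0297), Ttr (0.0410), Slc38a5 (0.0181) and Slc7a2 (0.00144). Of the 12234 tested genes, 1090 had such a p. The high-fat diet and 8-week comparisons have no library in common, and differ in age as well as diet. Between them the genotype difference changed by 1.36 for Gcg, 1.37 for Irx2, 1.54 for Slc38a5, 1.14 for Ttr, 0.80 for Slc7a2 and -1.13 for Gc. All 6 passed (limma adjusted p from 3.04e-06 for Gc to 0.00590 for Slc38a5), where 4.93% of tested genes did.

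Whether the members kept step with Gcg was examined through their ratio to Gcg in the same library. For Irx2 the change of the log2 ratio between the high-fat diet and 8 weeks was 0.0022 at the pseudocount of 1 (two-sided exact permutation p = 0.985, 400 arrangements of genotype within condition). That value depends on the pseudocount, which compresses Irx2 at its low level: at 0.1 the change was 0.50 (adjusted p = 0.105). The change was 0.18 for Slc38a5 (exact p = 0.475) and -0.22 for Ttr (exact p = 0.07). Without deleted 8-week replicate 3 the Ttr change passed (-0.32, permutation adjusted p = 0.00875). Ttr stood at 18.4 ± 0.648 and 19.7 ± 0.483 FPKM per 1000 FPKM of Gcg (SD, n = 3 each) in deleted and floxed islets on the high-fat diet. In the 4 chow groups its mean was between 13.6 and 14.8, and no chow library overlapped a high-fat diet library. Gc parted from Gcg by -2.49 (exact p = 0.005, the smallest possible, adjusted p = 0.0175 over the 7 ratios). It stood at 1.64 ± 0.172 FPKM per 1000 FPKM of Gcg in deleted and 5.59 ± 0.589 in floxed islets on the high-fat diet, and at 2.63 ± 0.515 in deleted and 1.56 ± 0.120 in floxed islets at 8 weeks. Slc7a2 parted from Gcg by -0.57 (exact p = 0.02, adjusted p = 0.035), since it changed less, but this was lost without any of 7 single libraries (adjusted p 0.07 to 0.105), at a pseudocount of 0.1 (adjusted p = 0.105) and with quantile normalization (adjusted p = 0.4). Irx1 (-1.07) and Pou3f4 (-1.30) also passed at a pseudocount of 1, which outweighs their values; at a pseudocount of 0.1 the change was -0.11 for Irx1 (adjusted p = 0.86) and -1.14 for Pou3f4 (adjusted p = 0.362).

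**Figure D3:**
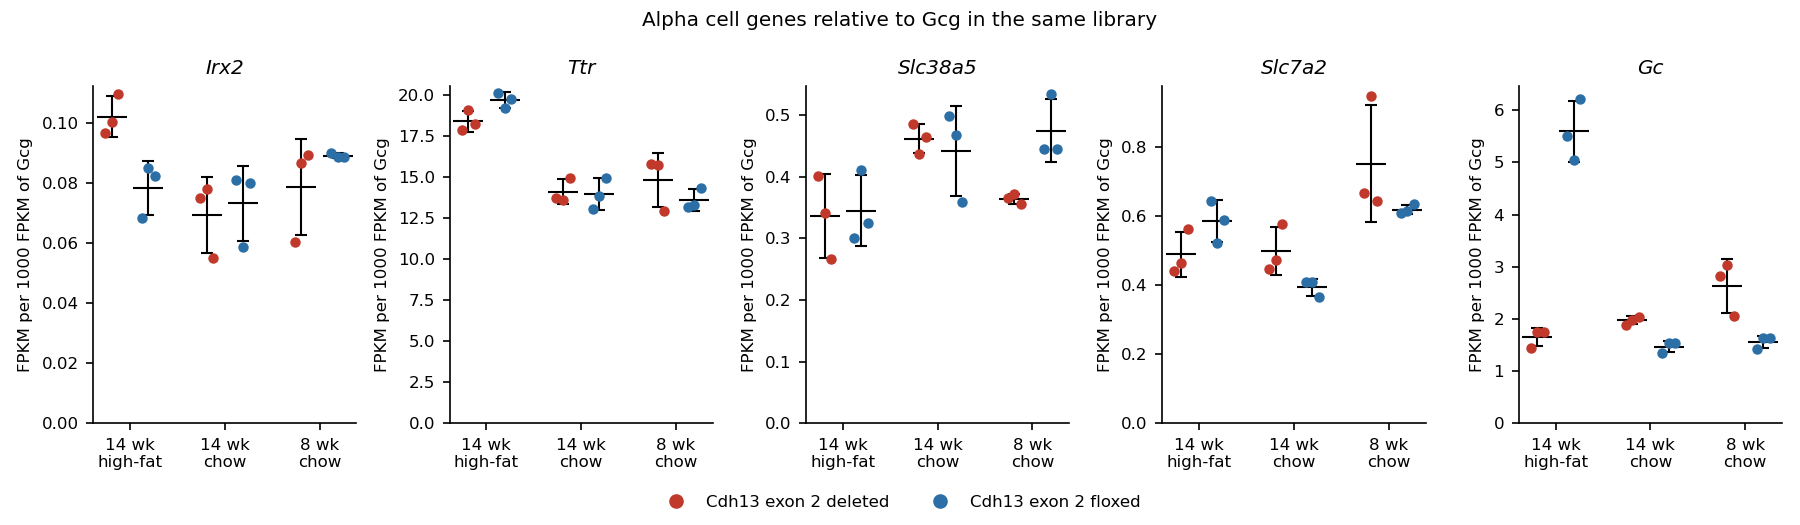
FPKM of 5 alpha cell genes per 1000 FPKM of Gcg in the same library (points), with group mean and SD (bars, n = 3). Ttr is higher relative to Gcg on the high-fat diet than on chow in both genotypes, and Gc stands apart in floxed islets on the high-fat diet.

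Variation between libraries of the same group gives a second view of members that move together, one that the group comparisons do not use. After the group means were removed, the deviation of Gcg over the 18 libraries went with that of Ttr (Pearson r = 0.846, exact permutation p = 0.00182 within groups, Spearman rho = 0.841, exact p = 0.00174). It also went with that of Slc38a5 (r = 0.806, exact p = 6.64e-04, rho = 0.812, exact p = 0.00107) and that of Irx2 (r = 0.677, exact p = 0.0141, rho = 0.736, exact p = 0.00379). Adjusted over the 7 relations, r gave p = 0.00638 for Ttr, 0.00465 for Slc38a5 and 0.0329 for Irx2 in these permutation tests. Gc (r = 0.321), Irx1 (0.249), Slc7a2 (0.204) and Pou3f4 (0.0728) did not pass, with exact p from 0.330 to 0.853. Without the 2 libraries farthest from the median in Gcg, replicates 2 and 3 of deleted islets at 8 weeks, r was 0.855 for Ttr, 0.856 for Slc38a5 and 0.676 for Irx2, and all 3 still passed. The Irx2 call was lost when any of 8 single libraries was left out (adjusted p 0.0555 to 0.0965) and at a pseudocount of 0.1 (adjusted p = 0.0527). With quantile normalization, where Gcg takes few distinct values, r was 0.511 for Ttr, 0.463 for Slc38a5 and 0.643 for Irx2. None of these passed (permutation adjusted p = 0.185 each). Genes of a library share its preparation and its mix of cells. The part of either in these correlations was not tested.

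**Figure D4:**
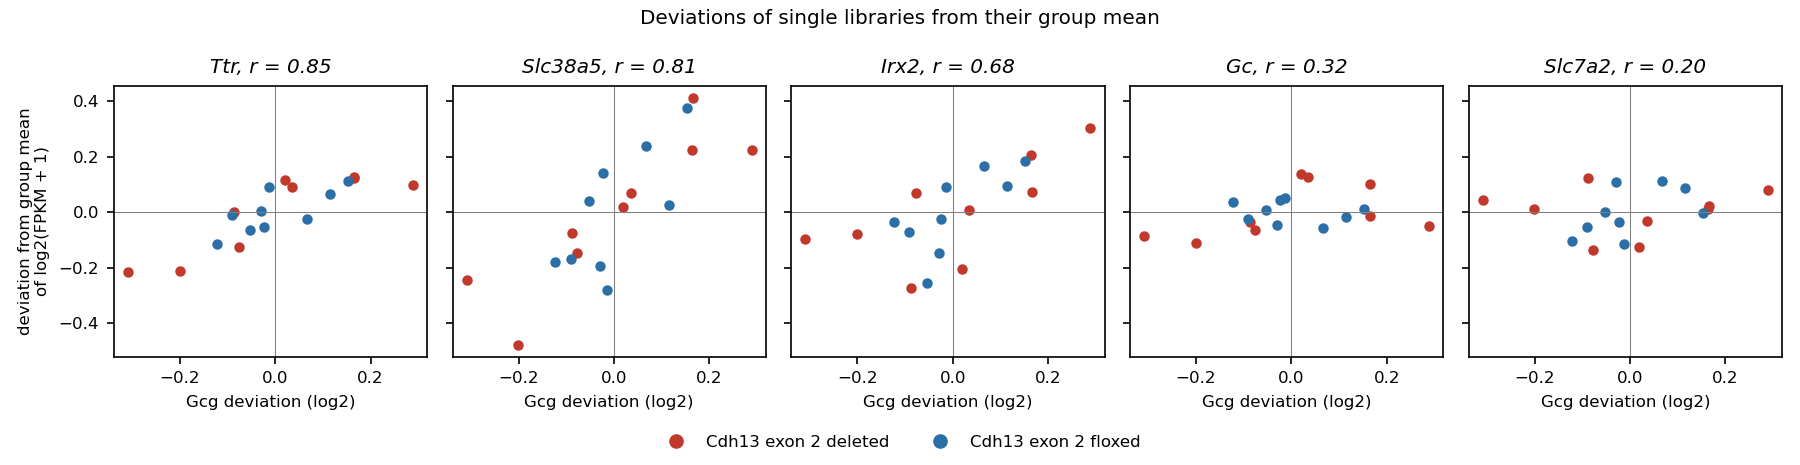
Deviation of log2(FPKM + 1) from the group mean in each of the 18 libraries, for Gcg (horizontal) against 5 other alpha cell genes (vertical), in deleted (red) and floxed (blue) islets. The points of Ttr, Slc38a5 and Irx2 climb with Gcg (r = 0.85, 0.81 and 0.68), whereas those of Gc and Slc7a2 scatter (r = 0.32 and 0.20).

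Ranked by this r among 12233 tested genes, Ttr was 3rd, Slc38a5 6th and Irx2 63rd, while Gc was 1712th and Slc7a2 3035th. The median gene had r = 0.00045, and the range was -0.876 to 0.871. The 10 genes outside the set with the highest r over the 18 libraries included Gpd2 (0.871), Maob (0.851), Adal (0.822), Tmem59l (0.815), Higd1a (0.804), Usp46 (0.797), Itfg1 (0.797), C8b (0.786) and Cct4 (0.777). Gpd2 is the mitochondrial glycerol-3-phosphate dehydrogenase, Maob a monoamine oxidase and C8b a complement component. Of the genes named, Gpd2 (0.46), Maob (0.74), Higd1a (0.84) and C8b (0.73) were also called higher in deleted islets on the high-fat diet (limma adjusted p 1.84e-05 to 8.23e-04). Of all tested genes 4.70% were called higher there. None of the genes named was called in limma between genotypes at 14 weeks on chow or at 8 weeks, where 0.114% and 0.548% of all tested genes were.

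Other genes with a part in alpha cells were counted in 5 lists, also chosen with earlier results of these data known. Bulk islet RNA cannot assign them to alpha cells. On the high-fat diet 3 of 10 beta markers and all 3 tested delta markers were higher in deleted islets too. Of 12 tested transcription and chromatin factors, 8 were higher in deleted islets on the high-fat diet, where 4.70% of all tested genes were, with a median log2 difference of 0.31. They included the islet factors Isl1 at 68.1 ± 4.74 FPKM in deleted and 52.8 ± 1.13 FPKM in floxed islets (SD, n = 3 each, log2 difference 0.36, limma adjusted p = 0.00141), Neurod1 (0.39, adjusted p = 0.00320) and Etv1 (0.40, adjusted p = 0.00415). At 8 weeks no factor passed in limma, where 0.548% of all tested genes did.

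Of 10 genes for the processing of proglucagon and its granule, Pcsk2, the convertase that releases glucagon from proglucagon, rose on the high-fat diet to 478 ± 11.5 FPKM in deleted islets, against 378 ± 20.9 FPKM in floxed islets (log2 difference 0.34, limma adjusted p = 8.50e-04). The granule protein gene Scg2 fell by 0.20 on the log2 scale (adjusted p = 0.0300), and the other 8 did not pass, where 10.7% of all tested genes did. Pcsk1n, which encodes an inhibitor of the related convertase Pcsk1, was the only gene of the 5 lists called at 8 weeks, and it fell by 0.40 in deleted islets (adjusted p = 0.0459). Of 11 receptors and surface proteins, 6 were higher in deleted islets on the high-fat diet, where 4.70% of all tested genes were. Sstr2, the somatostatin receptor through which glucagon release is inhibited, measured 3.02 ± 0.320 FPKM in deleted and 1.41 ± 0.248 FPKM in floxed islets (log2 difference 0.74, adjusted p = 0.00580). The vasopressin receptor Avpr1b (0.64, adjusted p = 0.0299) and the peptidase Dpp4 (0.31, adjusted p = 0.0218) were also called.

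Of 11 other amino acid transporters, only Slc7a8 was called on the high-fat diet (log2 difference 0.30, limma adjusted p = 0.0241), a share near the 10.7% of all tested genes. Of 6 tested partners of transthyretin and the vitamin D binding protein, Rbp4, the retinol carrier that binds transthyretin and is also a delta cell gene, rose to 264 ± 18.2 FPKM in deleted islets, against 121 ± 16.2 FPKM in floxed islets (log2 difference 1.12, adjusted p = 3.87e-07). Dio1, a deiodinase that activates thyroid hormone, fell to 121 ± 2.84 FPKM in deleted islets, against 185 ± 6.19 FPKM in floxed islets (log2 difference -0.61, adjusted p = 9.17e-07). In 14-week mice on chow no gene of the 5 lists passed in limma, where 0.114% of all tested genes did.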

How the data were processed

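Per the labels' protocols, islet RNA came from a miRNeasy extraction, with SMART-Seq HT for cDNA and Nextera for libraries. The authors deposited gene-level FPKM for each library; the unit is taken from the tools and the values. The submitters' processing notes name the build mm10, Cufflinks 2.2.1, SAMtools 0.1.19, Bowtie2 2.2.3 and TopHat2 2.0.13, but the sources used here give no annotation or filters. Set against the geometric mean of all libraries, every library had a median ratio between 1.0037 and 1.0079, so values look rescaled.

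Computed here were log2(FPKM + 1) values, fitted in 1 model of 6 group means over 18 libraries (limma 3.58.1, statmod 1.5.0, R 4.3.3, trend and robust moderated variances, Benjamini-Hochberg adjustment over 12234 genes that reached 1 FPKM in 3 or more libraries). The fit was also run on simulated data with independent noise and known changes, and the outcome is not reported here. Ratios to Gcg and correlations used exact permutation (python 3.11.15, numpy 2.4.6, pandas 2.3.3, scipy 1.17.1). Figures were drawn with matplotlib 3.10.9. Named genes were all members, up to 3 called genes with the smallest p per other list and genotype comparison, and the 10 genes most like Gcg; some of the genes so chosen are not reported here. The members and lists were chosen with earlier results of these data known. Alternatives were a pseudocount of 0.1, quantile normalization, median-ratio scaling, no filter, a minimum mean of 5 FPKM, a replicate block, sample quality weights, fits on the compared groups alone and each library left out. Fragment totals per library are unknown, and 3 libraries a group limit the precision.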

Additional observations from a re-analysis of the deposited data

Results flagged for a closer look

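The genotype difference of 4 members was not the same on the high-fat diet as at 14 weeks on chow, by limma's test of the difference itself. It changed by 0.96 for Gcg, 1.04 for Irx2 and 0.84 for Ttr, and by -1.22 for Gc, on the log2 scale.

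Between the high-fat diet and 8 weeks on chow it changed for all 6 tested members, by 1.36 for Gcg, 1.37 for Irx2, 1.54 for Slc38a5, 0.80 for Slc7a2, 1.14 for Ttr and -1.13 for Gc. These comparisons share no library, but differ in both age and diet, which cannot be told apart.

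The log2 ratio to Gcg also changed its genotype difference between the high-fat diet and 8 weeks. The change was -0.57 for Slc7a2, -2.49 for Gc, -1.07 for Irx1 and -1.30 for Pou3f4 by exact permutation. The values of Irx1 and Pou3f4 are under 1 FPKM. With a pseudocount of 0.1 neither passed, nor did Slc7a2 (adjusted p = 0.105), which was also lost with quantile normalization and without any of 7 single libraries.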

How the results depend on the processing

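Of 1861 values recomputed for single members, 1770 kept their side of the threshold, 61 lost the call and 30 gained one. No called value changed sign, but 13 values that were not called did, in 6 results: the diet difference of Slc38a5 and of Gc in deleted islets, the age difference of Irx2 in floxed islets, the ratio of Irx2 to Gcg, and the correlations of Gc and Pou3f4 with Gcg. The counts of members called on the high-fat diet (5) and for the high-fat diet against 8 weeks (6) changed by at most 1. At 8 weeks the 2 members called became 0 with no filter, 4 with a mean of at least 5 FPKM, 5 with sample quality weights and 0 to 4 with a library left out. The 4 called with age in deleted islets became 2 when only the groups compared were fitted, and 2 to 4 with a library left out; the 2 in floxed islets became 1 with no filter and 0 to 2 with a library left out. The 4 ratios to Gcg that passed became 1 with a pseudocount of 0.1 and 1 with quantile normalization, and the 3 correlations became 0 with quantile normalization, where Gcg takes few distinct values.

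Counts over all tested genes moved as well. Sample quality weights gave 114 genes between genotypes at 14 weeks on chow (14 in the reported fit), 406 at 8 weeks (67), 2834 for diet in deleted islets (1830), 1032 and 963 for age in deleted and floxed islets (356 and 508), 778 for genotype by diet (432), 182 for genotype by age (24) and 1032 for the high-fat diet against 8 weeks (603). Fitting only the groups compared gave 2 genes at 14 weeks on chow, 44 at 8 weeks, 85 for age in deleted islets and 14 for genotype by age. With no filter 25 genes were called at 8 weeks and 3 for genotype by age. At 14 weeks on chow a mean of at least 5 FPKM gave 25 and quantile normalization 27. With single libraries left out, the counts were 820 to 1568 between genotypes on the high-fat diet, 3 to 30 at 14 weeks on chow, 16 to 168 at 8 weeks, 1159 to 2082 for diet in deleted islets, 149 to 399 and 232 to 636 for age in deleted and floxed islets, 257 to 519 for genotype by diet, 4 to 41 for genotype by age and 364 to 688 for the high-fat diet against 8 weeks. The cause was not tested.

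Of 21 correlations between same-numbered libraries, from -0.159 to 0.166, 4 exceeded 0.1. Differently numbered libraries were not compared, so these values cannot decide whether replicate numbers pair the libraries. With the replicate number as a block, the member counts were 5 on the high-fat diet, 0 at 14 weeks on chow and 3 at 8 weeks, where Slc38a5 passed (adjusted p = 0.0462). Slc38a5 also passed at 8 weeks with a mean of at least 5 FPKM, in a fit of only those groups, with sample quality weights and without any of 5 libraries of the other conditions (adjusted p 0.0120 to 0.0498 over these settings). Irx1 and Pou3f4, with 1 to 23 and 0 to 9 implied fragments a library, cannot show small differences at this depth, and these fragment counts cover counting error only. With no filter, Pou3f4 was called in floxed islets for diet (-0.48, limma adjusted p = 0.00310) and for age (0.51, adjusted p = 0.0131). Those calls rest on 17 implied fragments in all at 14 weeks on chow, against 2 on the high-fat diet and 1 at 8 weeks.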
